A study of Mus musculus with 2 samples.

Results

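The 10 genes described here encode secreted WNT antagonists (*Sfrp1*, *Sfrp2*, *Sfrp4*, *Frzb*, *Wif1*, *Dkk1*, *Dkk2*, *Dkk3*) and feedback genes that WNT signaling itself turns on (*Notum*, *Axin2*). They were chosen by name, and all 10 were found among the 19430 genes measured in the mouse fracture callus. The measurements came from 2 Visium sections of 1 paraffin block. Each section held the distal tibia callus of 1 control mouse and 1 Nf1Postn mouse, taken 10 days after a fracture that had been stabilized with a pin. The control mouse was Nf1+/flox and carried no *Postn*-cre. The Nf1Postn mouse was Postn-cre;Nf1flox/-, in which Cre driven by the periostin promoter deletes the floxed *Nf1* allele in *Postn*-expressing cells of the periosteum, on top of an *Nf1* allele that was null from birth in every cell. Mice were 8 weeks old at fracture by the deposited description, and the tissue was decalcified in 14% EDTA for 3 days.

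WNT proteins bind Frizzled receptors and the co-receptors LRP5 and LRP6 at the cell surface, which stabilizes β-catenin and switches on target genes with TCF and LEF factors. Antagonists act outside the cell: secreted Frizzled-related proteins (the Sfrp genes and *Frzb*) and WIF1 bind WNT ligands, whereas DKK1 and DKK2 bind the LRP co-receptors. In bone, WNT signaling promotes osteoblast formation, and its antagonists are made by chondrocytes, osteoblasts, osteocytes and fibrous cells in patterns that differ from gene to gene.

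The sample labels call the sections biological replicates, but both were cut from the same block, so each genotype was 1 mouse. No test between genotypes was therefore possible. Values are given for section 1, section 2 or both pooled, with exact 95% intervals that cover counting error only. The sections also used 2711 grid positions (barcodes) in common. Control spots numbered 1700 and 1778, with medians of 7053 and 5718.5 unique molecular identifiers (UMIs) per spot in sections 1 and 2. Nf1Postn spots numbered 1341 and 1556, with medians of 2030 and 3239.75 UMIs. Levels are given as CPM, the UMIs of a gene per 1000000 UMIs of all genes in a group of spots. They were not compared between genes, because each gene was read through its own probes. *Nf1* was measured at 87.8 and 79.0 CPM in control and at 65.6 and 49.6 CPM in Nf1Postn. Where its probes lie relative to the floxed exons was not analyzed here. Of the defining markers of callus tissue, 12 of 12 cartilage genes and 8 of 8 measured osteoblast genes were above 0 in at least 1 genotype. The summed cartilage list was 41035 CPM in control and 7284 CPM in Nf1Postn, the osteoblast list 41339 and 21211 CPM, and the mature muscle list 15515 and 82489 CPM.

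Promoter windows of 300 bases (250 before and 50 after the start site, RefSeq, GRCm38.p6) were available for *Sfrp2*, *Frzb*, *Wif1*, *Dkk1*, *Dkk2* and *Axin2*. The windows of *Sfrp2*, *Frzb* and *Wif1* are shown because these genes were lower together in the Nf1Postn callus, and that of *Dkk1* because it alone held a match to the letters searched. Capitals mark matches on either strand to the letters of a TCF/LEF-type motif, which were CTTTGAA or CTTTGAT, and likewise CTTTGTA or CTTTGTT.
*Sfrp2*, chr3:83766071-83766370, plus strand: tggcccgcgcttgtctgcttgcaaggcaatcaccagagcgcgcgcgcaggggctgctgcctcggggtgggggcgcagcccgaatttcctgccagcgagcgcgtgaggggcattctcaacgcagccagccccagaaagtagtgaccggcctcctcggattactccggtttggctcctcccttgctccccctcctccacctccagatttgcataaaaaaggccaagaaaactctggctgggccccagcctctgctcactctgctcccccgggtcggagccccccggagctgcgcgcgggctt
*Frzb*, chr2:80447347-80447646, minus strand: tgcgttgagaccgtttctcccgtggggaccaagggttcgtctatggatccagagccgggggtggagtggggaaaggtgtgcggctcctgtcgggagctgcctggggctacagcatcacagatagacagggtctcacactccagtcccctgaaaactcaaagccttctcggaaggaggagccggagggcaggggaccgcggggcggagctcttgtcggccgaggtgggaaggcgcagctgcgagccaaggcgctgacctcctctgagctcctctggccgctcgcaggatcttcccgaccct
*Wif1*, chr10:121033754-121034053, plus strand: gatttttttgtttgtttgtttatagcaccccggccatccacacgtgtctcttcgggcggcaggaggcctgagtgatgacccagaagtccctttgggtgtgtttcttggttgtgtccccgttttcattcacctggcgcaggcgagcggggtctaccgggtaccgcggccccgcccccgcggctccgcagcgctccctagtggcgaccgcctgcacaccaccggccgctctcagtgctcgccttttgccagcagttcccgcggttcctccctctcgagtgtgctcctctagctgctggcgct
*Dkk1*, chr19:30549447-30549746, minus strand: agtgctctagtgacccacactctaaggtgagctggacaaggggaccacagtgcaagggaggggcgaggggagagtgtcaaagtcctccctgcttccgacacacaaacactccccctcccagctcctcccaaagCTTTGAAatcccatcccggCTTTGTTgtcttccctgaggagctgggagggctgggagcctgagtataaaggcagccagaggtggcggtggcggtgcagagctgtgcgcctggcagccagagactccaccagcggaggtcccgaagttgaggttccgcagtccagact
The *Dkk1* window held CTTTGAA 117 bases and CTTTGTT 98 bases before the start site, and the other 5 windows held none of these letters. Of all 32851 windows in the table, 16.9% held a match, so 1 of 6 is close to that share. These coordinates are in the RefSeq build, whereas the gene positions given below are in mm39, the build of the count tables.

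*Sfrp2*, *Frzb* and *Wif1* were at least 2-fold lower in the Nf1Postn callus in both sections. *Sfrp1*, *Dkk2*, *Dkk3* and *Notum* were also lower in both sections, but by less than 2-fold in section 1. *Axin2* alone was higher in both, by a smaller factor, and *Sfrp4* was higher in section 1 and lower in section 2. Of the 9 genes that reached 50 UMIs in both sections, 3 were thus lower by the 2-fold rule and 0 higher. Over all 11851 genes with that many UMIs, 1.58% were lower and 4.21% higher by the same rule. The median log2 ratio of Nf1Postn to control was -1.02 over the 9 genes and -0.09 over all genes. A spot covers several cells, so fewer cells of a type and less RNA per cell cannot be told apart in any of these differences.

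*Sfrp2* (ENSMUSG00000027996, chr3:83673628-83681624) encodes a secreted Frizzled-related protein of fibrous and progenitor tissue. It was measured at 817 CPM in control section 1, 774 CPM in control section 2, 243 CPM in Nf1Postn section 1 and 115 CPM in Nf1Postn section 2. Both Nf1Postn values lay below both control values, and the control sections were close to each other. The level was 3.36-fold lower in section 1 and 6.72-fold lower in section 2, with a pooled log2 ratio of -2.30 (95% interval -2.37 to -2.22). Spots with an *Sfrp2* UMI were 78.3% of control and 29.3% of Nf1Postn spots. After thinning to 1000 UMIs, which left out 128 control and 328 Nf1Postn spots with fewer, the shares were 38.6% and 14.99%. The shares thus differed at equal depth too, among the spots kept. In the muscle spots of the Myh7 region described below, where *Sfrp2* was lowest and the median depth was 3728 UMIs, 39.8% of control and 12.03% of Nf1Postn spots held such a UMI. The summed list of 9 periosteal and fibrous stroma genes stood at 8267 and 9409 CPM in control and at 9463 and 6715 CPM in Nf1Postn. It was thus higher in Nf1Postn in section 1, for 6 of 9 genes, and lower in section 2, for 7 of 9.

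*Sfrp1* (ENSMUSG00000031548, chr8:23901518-23939649) encodes another member of this family. Its level was 161.3 and 159.5 CPM in control and 123.6 and 60.3 CPM in Nf1Postn for sections 1 and 2. The control sections were nearly equal, whereas in Nf1Postn section 2 lay well below section 1. The log2 ratio was -0.38 in section 1 and -1.40 in section 2, and -0.94 pooled (-1.05 to -0.83).

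*Sfrp4* (ENSMUSG00000021319, chr13:19807274-19817165), a family member also known for its part in cortical bone and phosphate balance, gave no common direction. It was measured at 39.9 and 84.4 CPM in control and at 93.9 and 50.6 CPM in Nf1Postn. The genotypes overlapped, since the control value of section 2 lay between the Nf1Postn values. Log2 ratios were 1.23 in section 1 and -0.74 in section 2, and the pooled ratio of 0.13 had an interval that included 0 (-0.01 to 0.26).

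*Frzb* (ENSMUSG00000027004, chr2:80242314-80277970), also named secreted Frizzled-related protein 3 and known as a product of cartilage, was at 199 and 110 CPM in control and at 42.5 and 32.6 CPM in Nf1Postn. Every Nf1Postn value was below every control value, although control section 1 was well above control section 2. The decrease was 4.69-fold and 3.38-fold, with a pooled log2 ratio of -2.12 (-2.28 to -1.96). The summed cartilage list stood at 49823 and 31202 CPM in control and 4519 and 8883 CPM in Nf1Postn. It was lower for 12 of 12 genes, and none of its genes was at 0 in both genotypes. Spots of cluster 12, the cartilage region described below, numbered 205 in control and 1 in Nf1Postn.

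*Wif1* (ENSMUSG00000020218, chr10:120869865-120936556) encodes WNT inhibitory factor 1, which binds WNT ligands through a domain unrelated to that of the Frizzled-related proteins. It was at 73.1 and 69.8 CPM in control and at 31.2 and 24.2 CPM in Nf1Postn. Sections were close to each other within each genotype, and the genotypes did not overlap. The decrease was 2.34-fold in section 1 and 2.88-fold in section 2 (pooled log2 ratio -1.42, -1.61 to -1.23). The osteoblast list was lower in Nf1Postn for 8 of 8 genes, by 0.96 on the log2 scale, and the osteoclast list for 8 of 8 genes, by 1.59.

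The Dickkopf genes were lower in Nf1Postn, less clearly so. *Dkk3* (ENSMUSG00000030772, chr7:111715224-111758265), the divergent member that does not act on LRP co-receptors as the others do, was at 291 and 318 CPM in control and at 227 and 124 CPM in Nf1Postn. Its log2 ratio was -0.36 in section 1 and -1.36 in section 2. *Dkk2* (ENSMUSG00000028031, chr3:131791053-131886066), an LRP ligand, was at 30.8 and 37.2 CPM in control and at 16.2 and 13.9 CPM in Nf1Postn. It missed the 2-fold rule by its ratio of 1.91-fold in section 1, with a pooled log2 ratio of -1.20 (-1.47 to -0.94). *Dkk1* (ENSMUSG00000024868, chr19:30523263-30527066), the best known LRP antagonist of bone, was barely detected, with 98 UMIs in all control spots and 14 in all Nf1Postn spots. It was at 4.94 and 2.56 CPM in control and at 2.89 and 0.668 CPM in Nf1Postn. Its 35 UMIs in section 2 were under the minimum for the rule, and its section 1 interval included 0 (log2 ratio -0.77, -1.90 to 0.19).

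The feedback genes did not move together. *Notum* (ENSMUSG00000042988, chr11:120544614-120552002) encodes a secreted enzyme that removes the lipid from WNT proteins and so inactivates them. It was at 12.2 and 11.3 CPM in control and at 7.22 and 5.01 CPM in Nf1Postn, with a pooled log2 ratio of -1.02 (-1.46 to -0.60) from 303 and 55 UMIs. *Axin2* (ENSMUSG00000000142, chr11:108811175-108841610), a scaffold of the β-catenin destruction complex and a common readout of canonical WNT signaling, was at 29.6 and 37.9 CPM in control and at 37.6 and 46.6 CPM in Nf1Postn. Within each section Nf1Postn was higher, yet control section 2 and Nf1Postn section 1 were level. The log2 ratio was 0.34 and 0.30, and 0.37 pooled (0.20 to 0.54). *Axin2* UMIs were nonetheless found in fewer Nf1Postn spots (12.01% against 20.4%), and thinning to 1000 UMIs turned this to 4.24% against 3.70%. The mature muscle list had a log2 ratio of 2.41, with 8 of 8 genes higher and summed levels of 12119 and 19315 CPM in control against 56881 and 97305 CPM in Nf1Postn. What part these shifts in tissue markers had in the ratios over all spots was not tested, and ratios within regions are given below.

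**Figure D1:**
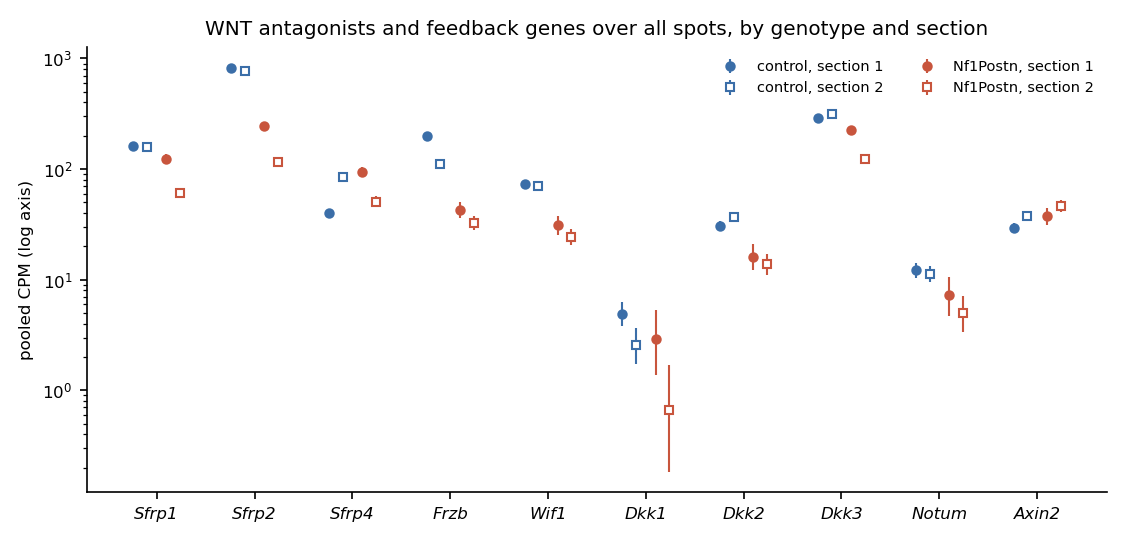
Level of the 10 genes (CPM, log axis) in each genotype and section, with exact 95% Poisson intervals that cover counting error only. Filled symbols are section 1 and open symbols section 2. Both Nf1Postn intervals lie below both control intervals for *Sfrp2*, *Frzb*, *Wif1*, *Sfrp1*, *Dkk2* and *Dkk3*, while *Sfrp4* runs in opposite directions in the 2 sections. The share of all genes separated in this way is not given, so the separation only describes the genes shown.

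Members of other parts of the pathway were examined from lists of 5 kinds. None of 9 measured WNT ligands differed by the 2-fold rule in both sections (median log2 ratio 0.01). Of 19 receptors and agonists, 2 were lower and 0 higher. These were *Rspo2*, a secreted R-spondin that enhances WNT signaling, at 11.9 and 10.3 CPM in control against 5.78 and 2.34 CPM in Nf1Postn, and *Lgr6*, an R-spondin receptor, at 13.8 and 11.1 CPM against 5.49 and 4.18 CPM. Of 7 other antagonists, 12 other feedback and target genes and 14 intracellular components, 0 differed by the rule, with median log2 ratios of -0.36, -0.50 and -0.52. Each of these lists had a median closer to that of all genes than the 9 antagonist and feedback genes had. *Sost*, the osteocyte LRP antagonist, came close to the rule in section 2, with 323 and 250 CPM in control and 195 and 125 CPM in Nf1Postn.

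To place the genes in the tissue, spots were grouped into 14 regions by the expression of 16727 other genes, leaving out the 10 genes, the WNT lists and the marker lists. Regions are called by their leading genes. The Crabp1 region (led by *Crabp1*, *Gpnmb* and *Ptgfr*) held 705 control and 65 Nf1Postn spots. The cartilage region (*Ucma*, *Scrg1*, *Cnmd*) held 205 and 1, and the Col10a1 region of hypertrophic cartilage genes (*Col10a1*, *Ihh*, *Snorc*) held 376 and 28. The bone region, which had the highest ratio of the osteoblast list and was led by the osteoclast genes *Acp5*, *Siglec15* and *Mmp9*, held 685 and 30. Muscle genes led the Myh7 region (113 control and 640 Nf1Postn spots), the Ucp3 region (19 and 439) and the Myh3 region of regenerating muscle genes (165 and 172). The Mepe region (*Mepe*, *Hbb-bs*, *Bglap*) held 229 and 311 spots, and the Cadm4 region (*Cadm4*, *Cxcl14*, *Cfd*) 232 and 203. Regions in which the antagonists were highest were thus mostly small in the Nf1Postn callus.

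The genes fell into a few places. Over both genotypes *Sfrp2* and *Sfrp1* were highest in the Crabp1 region, which held 51.2% of all *Sfrp2* UMIs and 50.7% of all *Sfrp1* UMIs. *Sfrp2* was at 1241 CPM there (1219 to 1265). The cartilage region followed at 848 CPM and the Cadm4 region at 816 CPM. These levels mix the genotypes, and the cartilage region held 1 Nf1Postn spot against 203 in the Cadm4 region. In control spots alone *Sfrp2* was at 1317 CPM in the Crabp1 region and 1181 CPM in the Cadm4 region. In control section 2 these levels were 1280 and 1255 CPM. *Sfrp1* was at 274 CPM in the Crabp1 region and 256 CPM in the Cadm4 region, with overlapping intervals, and only at 100 CPM in the cartilage region. Control spots alone had *Sfrp1* level between the Crabp1 region (282 CPM) and the Cadm4 region (283 CPM). In Nf1Postn spots it was at 174 CPM in the Crabp1 region and 219 CPM in the Cadm4 region. The genes thus shared their highest region only over both genotypes, and *Sfrp2* extended into cartilage where *Sfrp1* was low. Over 44 groups of spots (region by genotype by section, which share libraries), log2 levels of *Sfrp1* and *Sfrp2* had a Pearson r of 0.88, the highest of all pairs among the 10. *Dkk3* was also highest in the Crabp1 region, at 443 CPM, followed by the Il1rn region (*Il1rn*, *Mmp3*) at 368 CPM and the cartilage region at 334 CPM.

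*Frzb* marked cartilage. It was at 538 CPM in the cartilage region (512 to 565) and 343 CPM in the Col10a1 region (317 to 372), and no other region exceeded 117 CPM. The control level of the cartilage region was 553 CPM in section 1 and 504 CPM in section 2. *Wif1* was highest in the bone region, at 158 CPM (148 to 167), followed by the Mepe region at 121 CPM and the Col10a1 region at 103 CPM, and it was low in the cartilage region at 34.5 CPM. The bone region held 48.9% of all *Wif1* UMIs. *Dkk1* had the same first region, with 59.8% of its 112 UMIs in the bone region at 10.3 CPM, and *Notum* was at 19.2 CPM there, level with 17.3 CPM in the Col10a1 region. The Mepe region had *Dkk1* at 7.95 CPM (4.11 to 13.9), within the interval of the bone region, and was the highest in section 1 alone at 14.5 CPM. *Wif1*, *Dkk1* and *Notum* thus shared a leading region, in which *Sfrp2*, *Sfrp1* and *Dkk2* were low, but the bone region held only 34.9% of *Notum* UMIs, and over the 44 groups the r between these 3 genes was 0.28 to 0.36. *Notum* was most like *Frzb* among the 10 (r = 0.58).

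*Dkk2* was highest in the Cadm4 region (67.2 CPM), whose leading genes include the adipocyte genes *Cfd* and *Adipoq*, and next in the Crabp1 region (49.7 CPM). *Sfrp4* was spread over several regions outside cartilage, from 134 CPM in the Cadm4 region to 109 CPM in the Mepe region and 99.9 CPM in the Angptl7 region (*Angptl7*, *Cilp2*), which did not differ from the next in order beyond their intervals. In the cartilage region it was at 11.5 CPM, the lowest of all regions. *Axin2* varied least between regions, from 22.3 CPM in the cartilage region to 50.2 CPM in the Myh7 region among regions with at least 10 UMIs. Its 3 highest values, 50.2, 48.9 and 47.1 CPM, were in regions of muscle genes and did not differ beyond their intervals.

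**Figure D2:**
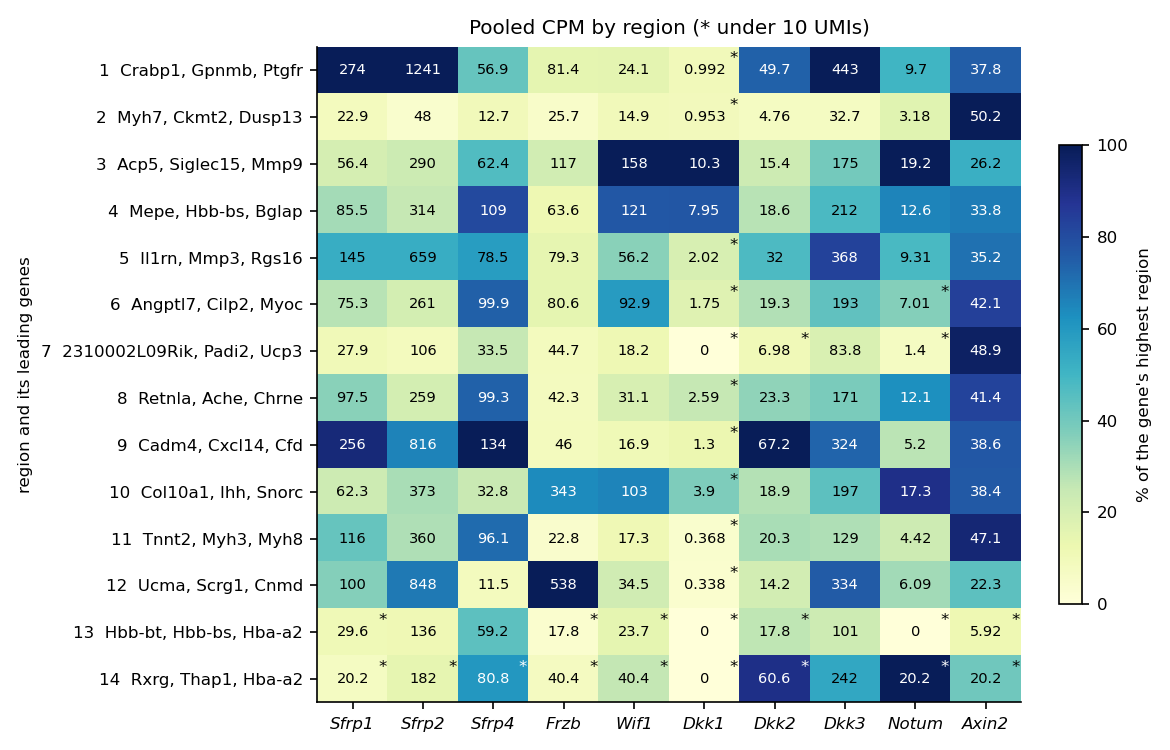
Level of each gene in the 14 regions, as CPM over the spots of both genotypes and sections, with color showing the percent of the gene's own highest region. *Sfrp1* and *Sfrp2* peak in region 1, *Frzb* in regions 12 and 10, and *Wif1*, *Dkk1* and *Notum* in region 3. Asterisks mark values from under 10 UMIs.

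The spots that held each gene lay together to different degrees. Neighbors of *Wif1*-positive spots carried 1.44 and 1.68 times the mean *Wif1* level of the control callus in sections 1 and 2, and neighbors of *Frzb*-positive spots carried 1.28 and 1.56 times the mean *Frzb* level. For *Axin2* these ratios were 1.07 and 1.10 in control and 1.11 and 1.05 in Nf1Postn. Ratios as low were found in control for the widely detected *Sfrp2* (1.07 and 1.13) and *Dkk3* (1.07 and 1.09). Set against the level expected from the neighbors' own regions, the control ratios were 1.11 and 1.22 for *Wif1* and 1.08 and 1.13 for *Frzb*. For *Axin2* they were 1.08 and 1.05. In section 1 of the control callus, 146 of 1700 spots (8.59%) held 50% of all *Sfrp2* UMIs, and 140 spots (8.24%) held 50% of all *Axin2* UMIs. *Sfrp2* had 11085 UMIs there in 1385 spots, and *Axin2* only 402 UMIs in 341 spots. With so few *Axin2* UMIs, these shares cannot compare how concentrated the 2 genes were. In maps of the control callus, *Sfrp2* lay along the outer rim, *Frzb* in a central patch and *Wif1* on both sides of that patch.

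**Figure D3:**
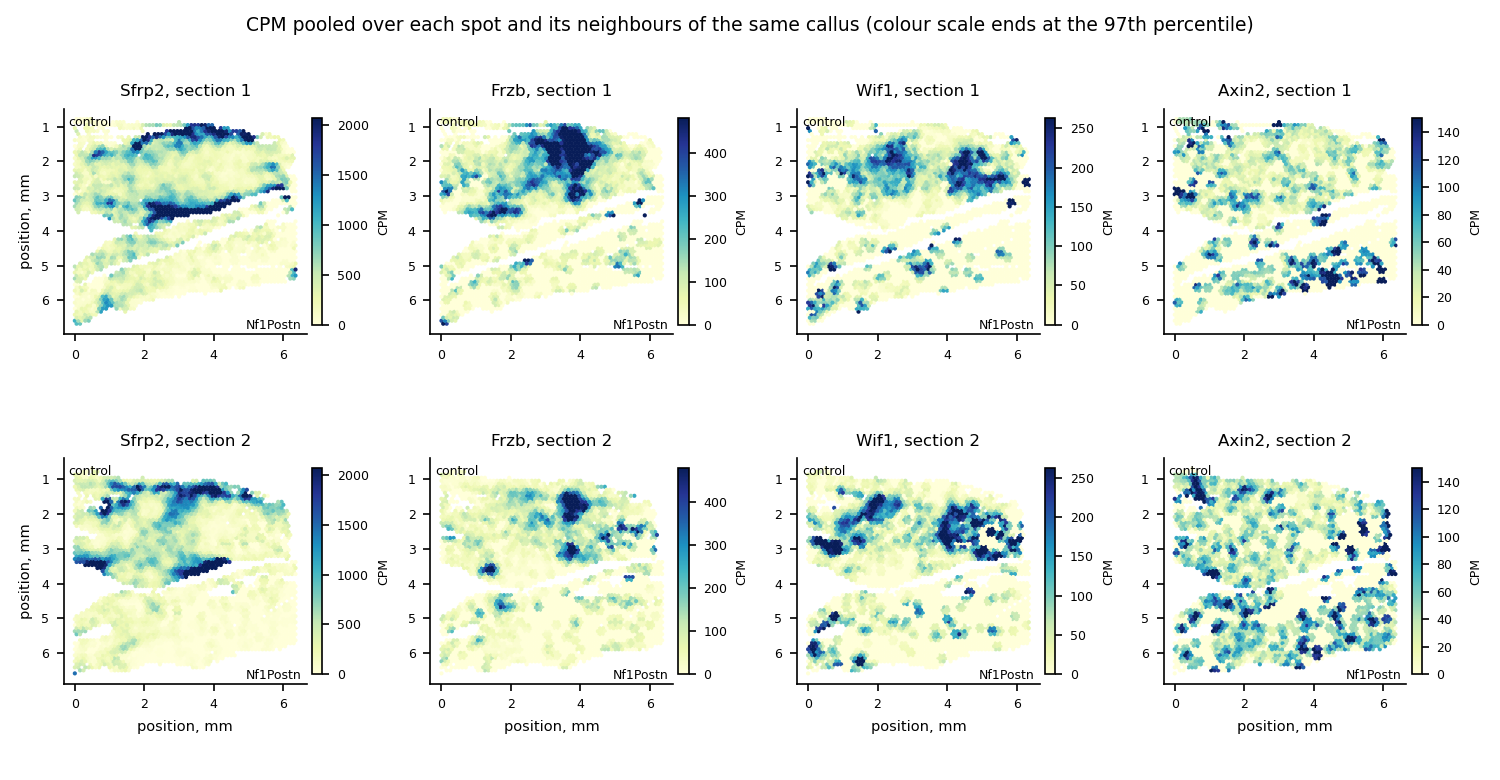
Maps of *Sfrp2*, *Frzb*, *Wif1* and *Axin2* on the spot grid of both sections, colored by CPM pooled over each spot and its 6 neighbors. The control callus is at the top and the Nf1Postn callus below it. In the control callus the highest values of *Sfrp2*, *Frzb* and *Wif1* lie in the Crabp1, cartilage and bone regions, with lower levels that overlap in cartilage, and *Axin2* values differ less from place to place.

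Distance from the cartilage region gave the order of the genes in the control callus. *Frzb* was at 553 and 504 CPM inside the region in sections 1 and 2, at 243 and 174 CPM up to 200 μm away, and at 73.1 and 53.7 CPM beyond 1000 μm. It decreased at every step in both sections. *Sfrp1* had a different course: it was at 104 and 90.9 CPM inside, 233 and 280 CPM up to 200 μm away, and 120 and 132 CPM beyond 1000 μm, so it was highest in tissue near cartilage and not inside it. *Sfrp2* also peaked next to cartilage in pooled sections, with 849 CPM inside, 1111 CPM up to 200 μm away and 637 CPM beyond 1000 μm. *Sfrp4* ran opposite to *Frzb*, from 12.6 and 7.86 CPM inside to 67.7 and 89.3 CPM beyond 1000 μm. Inside the region against beyond 1000 μm, 3 of the 10 genes were higher (*Frzb*, *Sfrp2* and *Dkk3*). The count was 5 when the Col10a1 region was joined to the cartilage region, since *Wif1* (log2 ratio 0.26, -0.01 to 0.54) and *Notum* (0.15, -0.58 to 0.90) then joined, both with intervals that included 0. The share of all genes higher in cartilage is not given, so these counts only describe the 10 genes.

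Distance from the bone region could be followed in both genotypes. *Wif1* in control was at 155 and 168 CPM inside the region, 74.7 and 82.2 CPM up to 200 μm away, and 10.2 and 4.06 CPM beyond 1000 μm. In Nf1Postn it was at 106 and 54.1 CPM inside, from 9 and 7 UMIs, and at 23.0 and 16.5 CPM beyond 1000 μm. The level was therefore higher inside the bone region than beyond 1000 μm in both genotypes, and lower inside it in Nf1Postn than in control. In pooled Nf1Postn spots *Wif1* was at 74.7 CPM in the bone region, from 16 UMIs. It was at 82.3 CPM in the Mepe region and 111 CPM in the Angptl7 region of the same callus. Of these regions, bone was the highest in section 1 and the lowest in section 2. *Notum* in pooled control sections went from 19.3 CPM inside to 14.4 CPM up to 200 μm away and 6.26 CPM beyond 1000 μm, and *Dkk1* from 10.7 to 2.85 and 0.78 CPM. *Sfrp2* ran the other way in control, with 298 CPM inside the bone region against 868 CPM up to 200 μm away. At no distance did *Sfrp2* in Nf1Postn reach its control level, its highest value being 252 CPM between 200 and 500 μm.

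**Figure D4:**
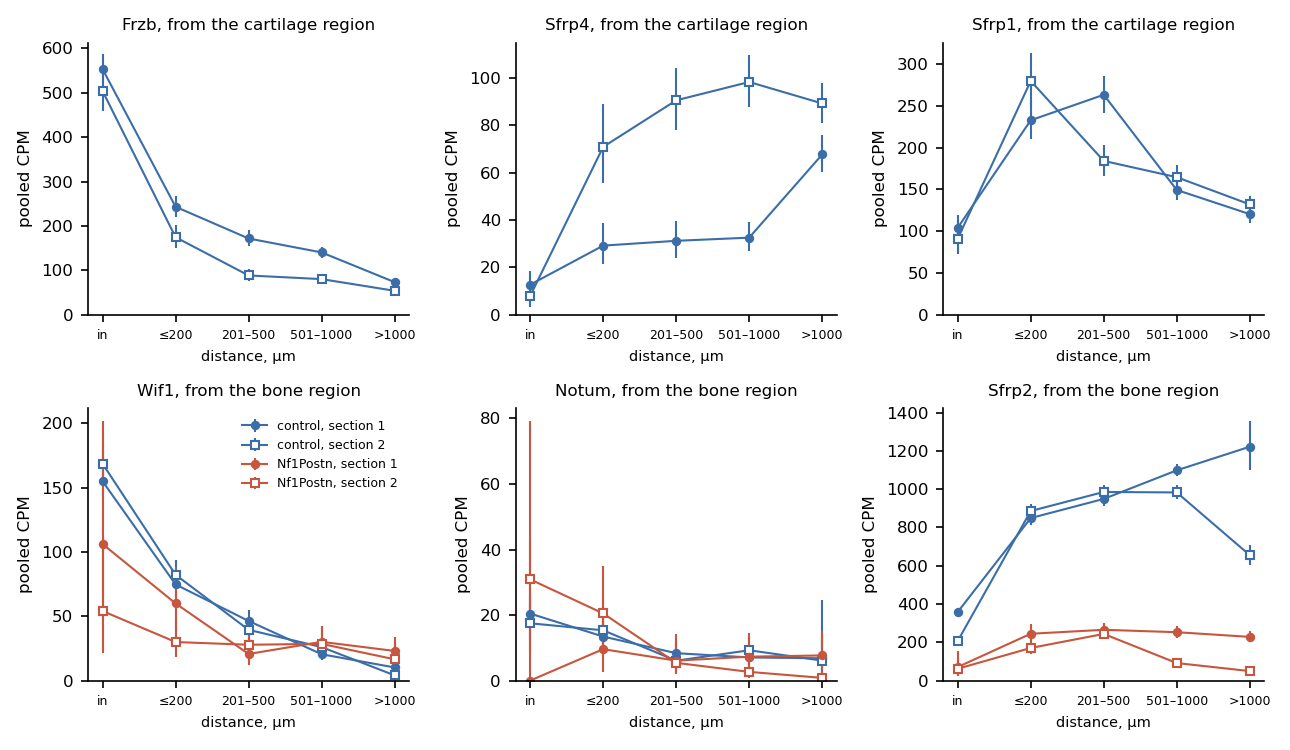
Level (CPM) against distance from the cartilage region (top, control only) or the bone region (bottom, both genotypes), by section, with exact 95% Poisson intervals. *Frzb* decreases away from cartilage, *Sfrp4* is lowest inside it, *Sfrp1* peaks near it, and *Wif1* in control is highest in bone. In Nf1Postn, *Wif1* is higher inside the bone region than in the spots farthest from it, from few UMIs inside. With sections pooled, its Nf1Postn level in bone is below those of the Mepe and Angptl7 regions. *Sfrp2* in Nf1Postn stays below control at every distance.

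Since the calluses differed in tissue makeup, each gene was compared within the 11 regions that held at least 20 spots of each genotype. Only the members were compared in this way, so the counts of regions have no background over all genes. *Sfrp2* was lower in Nf1Postn in 10 of 10 regions with UMIs of both genotypes, and all 10 intervals lay below 0. No ratio was given for the remaining region, led by *Rxrg*, with a median of 355.5 UMIs per spot. There 22 control spots held 0 *Sfrp2* UMIs and 110 Nf1Postn spots held 9. Its log2 ratio within regions ranged from -2.90 to -0.46 with a median of -1.88, and it was lower in both sections in 9 of the 9 regions that could be split. The lowest value was that of the Col10a1 region, which held 2 Nf1Postn spots in section 1, and section 2 alone gave -2.14 there. In the Crabp1 region *Sfrp2* was at 1352 and 1280 CPM in control and at 278 and 329 CPM in Nf1Postn. In the Cadm4 region it was at 1126 and 1255 CPM against 419 and 225 CPM. The smallest decrease was in the Mepe region, with 435 and 332 CPM against 333 and 193 CPM. Lower *Sfrp2* was thus measured in the Crabp1 and Cadm4 regions, in bone and in regions of muscle genes alike.

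*Frzb* was lower in 9 of 10 such regions, with 7 intervals below 0 and a median log2 ratio of -0.92, smaller than its ratio over all spots. In the Col10a1 region, where 28 Nf1Postn spots remained, *Frzb* was at 359 CPM in control and 168 CPM in Nf1Postn (log2 ratio -1.10, -1.74 to -0.52). Of these spots 26 lay in section 2, which alone gave 276 against 173 CPM (-0.67, -1.35 to -0.05). *Wif1* was lower in 9 of 11 regions, with 6 intervals below 0 and a median of -1.05. In the bone region *Wif1* was at 155 and 168 CPM in control and at 106 and 54.1 CPM in Nf1Postn. In the Mepe region, which was well filled in both genotypes, it was at 129 and 189 CPM against 79.2 and 85.8 CPM. *Wif1* was higher in Nf1Postn in both sections of the Angptl7 region only, from 20 and 33 UMIs.

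The remaining genes divided within regions. *Dkk2* was lower in 7 of 10 regions and reached 52.8 CPM in control against 11.7 CPM in Nf1Postn in the Crabp1 region (log2 ratio -2.17, -3.39 to -1.18) and 90.8 against 35.5 CPM in the Cadm4 region. *Sfrp1* was lower in 6 of 10, including the Crabp1 region at 287 and 277 CPM against 179 and 172 CPM. *Dkk3* was lower in 6 of 11 with a median log2 ratio of -0.03, and in its highest region it was level, at 442 CPM in control and 456 CPM in Nf1Postn (0.05, -0.13 to 0.21). *Notum* was lower in 8 of 10 regions, with 1 interval below 0, and higher in 2, with 1 interval above 0. The last was the Col10a1 region, at 14.6 CPM in control and 47.1 CPM in Nf1Postn (1.69, 0.23 to 2.95), from 24 and 7 UMIs. Section 2 alone gave 1.55 there, with an interval that included 0 (-0.15 to 3.21). *Axin2* was lower in 5 and higher in 5 of 10, with a median of 0.03, 1 interval below 0 and 2 above. In the Col10a1 region it was at 32.8 CPM in control and 101 CPM in Nf1Postn (1.62, 0.69 to 2.47), from 54 and 15 UMIs. *Sfrp4* was lower in 5 and higher in 6 of 11.

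A comparison over 2279 of the 2897 Nf1Postn spots (78.7%) set each spot against the control level of its own region. Its intervals took the control levels as fixed and leave out their counting error, so they are too narrow. The comparison was made for the members only, with no value over all genes to set beside it. *Sfrp2* was then at 167 CPM where control levels would give 551 CPM, a log2 ratio of -1.72 (-1.80 to -1.65). *Frzb* was at 35.8 against 56.7 CPM, and its ratio shrank from -2.12 over all spots to -0.67 (-0.83 to -0.50). *Wif1* shrank from -1.42 to -0.72, *Dkk3* from -0.91 to -0.08, *Dkk2* from -1.20 to -1.004 and *Notum* from -1.02 to -0.91. *Axin2* went from 0.37 to -0.08, with an interval that included 0 (-0.23 to 0.06). *Sfrp2* was more than 2-fold lower under every way of drawing regions that was tried, from -2.10 with marker zones to -1.58 at resolution 1.0, and in each section alone. The other values depended on the regions. *Wif1* was -1.19 at resolution 0.3 and -0.28 at resolution 1.0, and *Frzb* was -1.02 with marker zones. *Notum* was -0.57 at resolution 0.3, -0.28 at resolution 1.0 and -0.29 with marker zones, the last 2 with intervals that included 0, and *Dkk2* was -0.49 at resolution 1.0. *Axin2* changed direction, from -0.21 (-0.35 to -0.07) at resolution 0.3 to 0.19 (0.03 to 0.35) at resolution 1.0, and from -0.29 in section 1 to 0.11 in section 2.

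**Figure D5:**
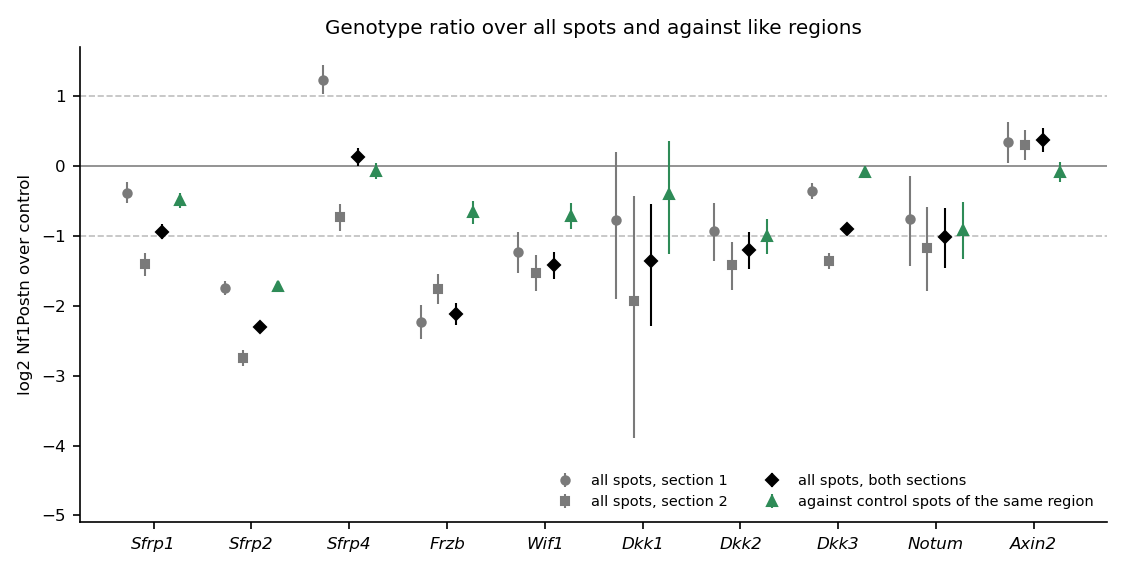
Log2 ratio of Nf1Postn to control for each gene over all spots (section 1, section 2 and pooled) and with regions matched (triangles), with exact 95% intervals. Intervals of the triangles leave out the counting error of control spots. Dashed lines mark 2-fold. *Sfrp2* stays beyond the lower line in all 4 values, and *Frzb*, *Wif1*, *Dkk3* and *Axin2* move toward 0 when regions are matched.

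The genes whose log2 levels were most alike over the 44 groups of spots were found by Pearson r. *Sfrp1* was most like *Fstl1* (r = 0.92) and *Fbln5*, and *Sfrp2* most like *C1qtnf1* (0.89) and *Ptx3*. *Frzb* came with *Rab11fip4* (0.89), the Hedgehog receptor *Ptch1* and the cartilage matrix gene *Matn3*, and *Wif1* with *Dmp1* (0.76), a gene of osteocytes and osteoblasts. *Dkk3* came with *C1qtnf6* (0.89) and the thrombospondin genes *Thbs2* and *Thbs1*, *Sfrp4* with *Gsdmd* (0.82), *Dkk2* with *Topbp1* (0.79), and *Axin2* with *Etl4* (0.89). Likeness was weaker for *Notum*, a gene of few UMIs, at 0.64 with *Cd1d1*. These lists depended on the measure, since 18 of the 50 genes found in all stayed with Spearman correlation. Among the 10 genes themselves, the lowest r was -0.40, between *Sfrp4* and *Frzb*.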

How the data were processed

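For each section the authors deposited unnormalized UMI counts of each gene in each spot, with the genotype and grid position of every spot. The submitters' processing notes name Space Ranger 1.3.0 and mm39, and the study exported tables from Partek Flow. These deposited values were given the unit of expected counts, because 10 entries that join several gene identifiers were not whole. 1 entry that names no gene was left out (6.8e-05% and 3.8e-05% of UMIs), and 5 of 6380 spots had no genotype. Spots with under 1000 UMIs were 3.68% of control and 11.3% of Nf1Postn spots, which limits what can be read of genes such as *Dkk1* and *Notum*.

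The members and lists were chosen with earlier results of these data known. All 10 members were described, along with the WNT list genes past the 2-fold rule and, for each member, the 5 most alike genes (at least 200 UMIs in each section) by Pearson r of log2(CPM + 1), from which a few are given and some are not reported here. *Sost*, *Rspo2* and *Lgr6* apart, other list genes are given as counts, and *Sost* was chosen after its values were seen. A gene was counted as lower or higher where it differed at least 2-fold the same way in both sections, with at least 50 UMIs in each. No test was run. Intervals were exact Poisson for levels and conditional binomial for ratios, except ratios with regions matched. Those had the exact Poisson interval of the Nf1Postn count, with the count expected from control taken as fixed. Regions were Leiden clusters at resolution 0.5 (20 principal components, 15 nearest neighbors, genes in at least 0.3% of spots, centered per section). Distances used a spot spacing of 100 μm. Promoter letters came from the RefSeq table. The rule was tested on simulated data with 200 of 11851 genes changed between genotypes, where it found 99.3% of genes changed at least 4-fold and called 0.0172% of unchanged genes. The simulated counts held counting error only, with no variation between sections, mice or tissue makeup. They cannot show how often the rule calls a gene through such variation. Alternatives were 1 section alone, edgeR and DESeq2 scaling, spots of at least 1000 UMIs, thinning to 1000 UMIs, muscle, erythroid and granulocyte zones left out, no UMI minimum, a 1.5-fold rule, other resolutions and zones drawn by marker lists. The joint cartilage regions, the matching of regions and resolution 0.3 for ratios within regions were added after seeing the data. Python 3.11.15, NumPy 2.4.6, SciPy 1.17.1, pandas 2.3.3, igraph 0.11.9, leidenalg 0.10.2, matplotlib 3.10.9, R 4.3.3, edgeR 4.0.16 and DESeq2 1.42.0 were used.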

Additional observations from a re-analysis of the deposited data

Results flagged for a closer look

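*Axin2* and *Sfrp4* ran in opposite directions in different regions, the same way in both sections of each. They were found by a search of all members over pairs of regions, which kept pairs with both pooled intervals clear of 0. The share of all genes that such a search would flag is not given, and the difference between regions was not tested. *Axin2* had a log2 ratio of Nf1Postn to control of -1.01 in the Cadm4 region (-0.94 and -1.13 in sections 1 and 2, from 65 control and 24 Nf1Postn UMIs) and 0.62 in the Crabp1 region (1.04 and 0.27, from 305 and 38 UMIs). *Sfrp4* had a ratio of -0.88 in the Myh3 region (-0.05 and -1.24, from 171 and 90 UMIs) and 0.52 in the Crabp1 region (0.45 and 0.43, from 462 and 54 UMIs). In the Myh3 region the section 1 value of *Sfrp4* was close to 0 (-0.77 to 0.66). In the Crabp1 region both section intervals of *Sfrp4* included 0 (-0.42 to 1.21 and -0.09 to 0.92). Those of *Axin2* included 0 in section 1 of the Cadm4 region (-2.14 to 0.15) and section 2 of the Crabp1 region (-0.46 to 0.93). Pooled intervals in the Crabp1 region came close to 0, at 0.09 to 0.93 for *Sfrp4* and 0.09 to 1.11 for *Axin2*.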

How the results depend on the processing

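Over all spots, 9 of the 10 genes kept their direction under each of 7 alternatives, and *Sfrp4* under 5 of 7. *Sfrp2* ranged from -2.75 to -1.75, *Frzb* from -2.24 to -1.70 and *Wif1* from -1.53 to -1.15. The number of lower genes was 3 in section 1 alone and 7 in section 2 alone, and that of higher genes 1 and 0, the 1 being *Sfrp4*. TMM factors, DESeq2 size factors and a 1.5-fold rule each gave 5 lower genes, adding *Dkk2* and *Notum*. TMM moved the median of all genes from -0.09 to -0.21, and the share of all genes called lower was 2.84% with TMM, 2.61% with DESeq2, 6.37% with the 1.5-fold rule, 2.30% in section 1 alone and 6.17% in section 2 alone. The share called higher was 6.45% in section 1 alone and 5.89% in section 2 alone. Without the muscle, erythroid and granulocyte zones the median of the 9 genes was -0.51, and the count stayed at 3. The median and share of all genes are not given for this setting, so these values have no background. The highest region lay in the same place for 6 of 10 genes at resolution 1.0 and for 2 with marker zones (*Frzb* and *Notum*). At resolution 1.0 it moved for *Sfrp1*, *Sfrp2*, *Wif1* and *Axin2*. *Sfrp1* and *Sfrp2* were then highest in a cluster with 88.4% of its spots in the Cadm4 region. In section 1 alone it moved for *Sfrp1*, *Dkk1* and *Dkk3*, and in section 2 alone for *Notum* and *Axin2*. The median ratio within regions was -0.67, and became -0.57 at resolution 0.3, -0.28 at resolution 1.0, -0.88 with marker zones, and -0.67 to -0.60 in 1 section alone. No such median was computed over all genes, so these values have no background either. The count of genes higher in cartilage was 3, or 5 with both cartilage regions, with no share of all genes to set beside it. Of 50 genes found most alike, 18 stayed with Spearman correlation, 18 in section 1 alone and 8 in section 2 alone. The cause of these shifts was not tested. No paired analysis was possible because each genotype was 1 mouse, so no test was run that a pairing by section could enter. Levels over all spots are given by section for every member, while many ratios within regions are given pooled only. Sections could disagree there: with regions matched, the log2 ratio of *Sfrp4* was 0.43 in section 1 and -0.44 in section 2.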
